A study of Mus musculus with 4 samples.

Results

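Enzymes that make asparagine, alanine, aspartate, proline and cysteine, together with the mitochondrial phosphoenolpyruvate carboxykinase, were described in mouse embryonic stem cells that had lost Exosc3, which encodes part of the exosome, the complex that degrades and trims RNA. The set was named by gene symbol and holds 9 genes: Asns, Gpt2, Got1, Got2, Pycr1, Aldh18a1, Oat, Pck2 and Cth. Of these, 7 had 1 row each among the 22883 rows of the table, and all 7 passed the filter that left 9336 rows for testing. Got2 and Aldh18a1 had no row under those symbols and were not analysed here. The genes were picked with the difference between Exosc3-depleted and Exosc3-present cells already known, so that difference is given for them as a description, without a test.

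Both groups were V6.5 mouse embryonic stem cells grown without feeders and carrying the same conditional Exosc3 knockout. Exosc3-depleted cells had been without doxycycline for 3 days, and Exosc3-present cells were kept in 0.1 µg/ml doxycycline. Each group had 2 libraries of stranded, ribosomal RNA-depleted total RNA, and the labels speak of clones without saying which clone or culture gave which library. The p-values below therefore measure only the spread between these samples, which may be technical, and doxycycline and Exosc3 cannot be told apart. Exosc3 RNA was at 0.635 and 0.691 FPKM in Exosc3-depleted libraries and at 24.2 and 23.2 FPKM in Exosc3-present libraries, which matches the labels. FPKM is fragments per kilobase of gene model, scaled to library size, so levels can be set side by side between genes.

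These enzymes sit around glutamate and oxaloacetate. Asparagine synthetase (Asns) moves an amide group from glutamine to aspartate, and the aminotransferases Got1 and Got2 make aspartate while Gpt2 makes alanine. Aldh18a1 and Oat supply pyrroline-5-carboxylate, which Pycr1 reduces to proline, Cth releases cysteine from cystathionine, and Pck2 turns mitochondrial oxaloacetate into phosphoenolpyruvate. Many such genes are induced by the transcription factor ATF4 when amino acids run short or the endoplasmic reticulum is stressed. Asns, Gpt2, Pycr1, Aldh18a1, Pck2 and Cth are commonly counted among ATF4 targets and were set against Got1, Got2 and Oat.

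ATF4 binds with C/EBP proteins to a composite element of the form TGATGNAA. Promoter windows of 300 bases, from 250 before to 50 after the start of the RefSeq gene (GRCm38.p6), were found for 8 of the 9 genes, all but Cth. The motif, read on either strand, was present in 4 of the 8 windows, those of Asns, Pycr1, Pck2 and Got1. It was present in 3.97% of all 32851 promoter windows of that length. The 250 bases before the start of these 4 genes are shown because they hold the match, which stands in capitals; each is written in the direction of its gene.
Asns, chr6:7693210-7693459, minus strand: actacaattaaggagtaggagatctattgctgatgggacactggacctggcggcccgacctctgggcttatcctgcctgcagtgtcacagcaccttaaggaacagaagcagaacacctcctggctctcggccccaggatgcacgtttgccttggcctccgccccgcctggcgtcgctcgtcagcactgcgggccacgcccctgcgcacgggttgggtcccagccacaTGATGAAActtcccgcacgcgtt
Pycr1, chr11:120643749-120643998, minus strand: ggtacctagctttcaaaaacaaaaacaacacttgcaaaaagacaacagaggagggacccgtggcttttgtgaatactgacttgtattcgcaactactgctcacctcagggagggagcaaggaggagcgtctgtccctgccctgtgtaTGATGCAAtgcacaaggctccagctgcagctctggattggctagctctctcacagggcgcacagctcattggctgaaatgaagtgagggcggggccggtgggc
Pck2, chr14:55540016-55540265, plus strand: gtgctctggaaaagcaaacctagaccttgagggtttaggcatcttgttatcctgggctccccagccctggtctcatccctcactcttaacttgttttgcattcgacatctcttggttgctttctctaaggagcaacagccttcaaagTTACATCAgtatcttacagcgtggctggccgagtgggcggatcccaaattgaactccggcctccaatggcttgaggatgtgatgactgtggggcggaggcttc
Got1, chr19:43524606-43524855, minus strand: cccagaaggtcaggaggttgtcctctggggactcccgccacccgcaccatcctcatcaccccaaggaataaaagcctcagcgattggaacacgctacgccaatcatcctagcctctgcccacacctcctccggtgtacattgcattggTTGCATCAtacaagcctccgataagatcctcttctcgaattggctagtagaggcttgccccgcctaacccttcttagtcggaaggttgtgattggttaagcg

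The match began at position -23 in Asns, -103 in Pycr1, -103 in Pck2 and -102 in Got1, counted back from the first transcribed base. It read TGATGAAA in Asns and TGATGCAA in Pycr1. In Pck2 and Got1 it lay on the opposite strand, as TTACATCA and TTGCATCA. Got1, which was placed outside the ATF4 group, thus carried the motif, while Gpt2 and Aldh18a1, which were placed in it, carried no match in this window, nor did Oat and Got2. A match is a property of the letters only, and no binding was measured.

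All 7 enzymes were lower in Exosc3-depleted cells, and for each of them both Exosc3-depleted libraries lay below both Exosc3-present libraries. Such separation was found for 50.9% of all tested rows in that direction. Since the genes were chosen from this contrast, nothing is read from this count. In bulk RNA, fewer cells of a type and less RNA per cell cannot be told apart.

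Pck2 (uc007tyy.1) had the largest difference. It was at 1.54 and 1.02 FPKM in Exosc3-depleted libraries and at 31.2 and 31.6 FPKM in Exosc3-present libraries. These levels rested on 200 and 145 fragments in Exosc3-depleted libraries and 6450 and 5939 fragments in Exosc3-present libraries. The mean was 24.5-fold lower in Exosc3-depleted cells, a difference of -4.18 on the log2(FPKM + 0.5) scale (SE 0.21), and only 0.0321% of tested rows had a lower value. Pck1, the cytosolic form, was at 0 FPKM in both Exosc3-depleted libraries and at 0.0126 and 0.0138 FPKM in Exosc3-present libraries. The latter rested on a recovered count of 1 fragment each, which is a lower bound. Pck1 lay below the filter, so no difference could be measured for it.

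Gpt2 (uc009mpy.1), the mitochondrial alanine aminotransferase, was at 2.04 and 2.72 FPKM in Exosc3-depleted libraries and at 20.1 and 22.7 FPKM in Exosc3-present libraries. The means differed 8.98-fold (log2 -2.93, SE 0.20). Both Exosc3-depleted libraries were low and both Exosc3-present libraries high, without overlap. Its cytosolic counterpart Gpt, which was not among the chosen genes, was at 1.78 and 1.51 FPKM in Exosc3-depleted libraries and 2.97 and 2.97 FPKM in Exosc3-present libraries. Gpt fell by 0.69 on the log2 scale (limma adjusted p = 0.0209), but did not pass with median of ratios scaling (0.0762), quantile normalization (0.0926), scaling without the 50 highest rows (0.117), or without Exosc3-present replicate 1 (0.238) or replicate 2 (0.257). Gpt2 made up 53.4% and 64.3% of the FPKM summed over both forms in Exosc3-depleted libraries, against 87.2% and 88.4% in Exosc3-present libraries.

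**Figure D1:**
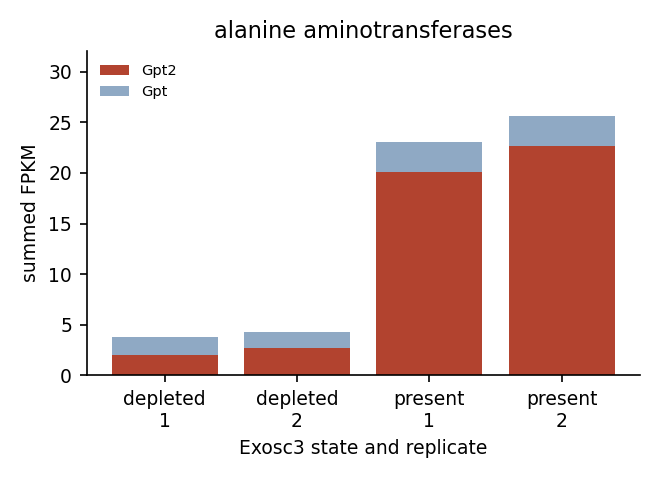
FPKM of the alanine aminotransferases Gpt2 and Gpt, stacked, in each library; each bar is 1 library and each colour 1 gene. Gpt2 made up 53.4% and 64.3% of the sum in Exosc3-depleted libraries, against 87.2% and 88.4% in Exosc3-present libraries.

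Pycr1 (uc007mtv.1), a mitochondrial pyrroline-5-carboxylate reductase, was at 1.34 and 1.07 FPKM in Exosc3-depleted libraries and at 8.08 and 7.74 FPKM in Exosc3-present libraries. The mean was 6.55-fold lower in Exosc3-depleted cells (log2 -2.30, SE 0.19). The Exosc3-depleted libraries lay close together and so did the Exosc3-present ones. Pycrl, the cytosolic form now named Pycr3, was at 14.7 and 11.1 FPKM in Exosc3-depleted libraries and 28.7 and 20.0 FPKM in Exosc3-present libraries. Pycrl fell by 0.88 (adjusted p = 0.0236). It lost its call under the 3 other scalings, where the adjusted p lay between 0.0955 and 0.139, when Exosc3-present replicate 1 was omitted (0.280), and likewise when low rows were kept (0.0549). Pycrl was more abundant than Pycr1 in all 4 libraries.

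Asns (uc009axf.1) was the most abundant of the 7 in every library. It was at 67.6 and 79.1 FPKM in Exosc3-depleted libraries and at 278.0 and 319.7 FPKM in Exosc3-present libraries. The mean was 4.07-fold lower in Exosc3-depleted cells (log2 -2.02, SE 0.17). Even so, Asns still made up 57.2% and 60.8% of the FPKM summed over the 7 genes in Exosc3-depleted libraries, against 64.3% and 65.5% in Exosc3-present libraries.

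Cth (uc008rvj.1), cystathionine gamma-lyase, was the least uniform. It was at 3.44 and 7.03 FPKM in Exosc3-depleted libraries and at 14.7 and 13.9 FPKM in Exosc3-present libraries. The mean was 2.73-fold lower in Exosc3-depleted cells (log2 -1.44, SE 0.30). The Exosc3-depleted libraries differed from each other more, in proportion, for Cth than for any other of the 7. Its log2 difference was -0.98 when Exosc3-depleted replicate 1 was left out and -1.91 when replicate 2 was. Cbs, which makes the cystathionine that Cth cleaves, was at 10.5 and 8.60 FPKM in Exosc3-depleted libraries and at 12.4 and 12.4 FPKM in Exosc3-present libraries (log2 -0.37, limma adjusted p = 0.151).

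Got1 and Oat differed least. Got1 (uc012bmb.1), the cytosolic aspartate aminotransferase, was at 36.0 and 32.2 FPKM in Exosc3-depleted libraries and at 66.4 and 77.5 FPKM in Exosc3-present libraries (2.11-fold lower, log2 -1.06, SE 0.17). Oat (uc009kcb.1), ornithine aminotransferase, was at 6.13 and 7.08 FPKM in Exosc3-depleted libraries and at 14.0 and 14.8 FPKM in Exosc3-present libraries (2.19-fold lower, log2 -1.08, SE 0.18). Of all tested rows, 10.9% had a lower log2 difference than Got1 and 10.6% a lower one than Oat.

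**Figure D2:**
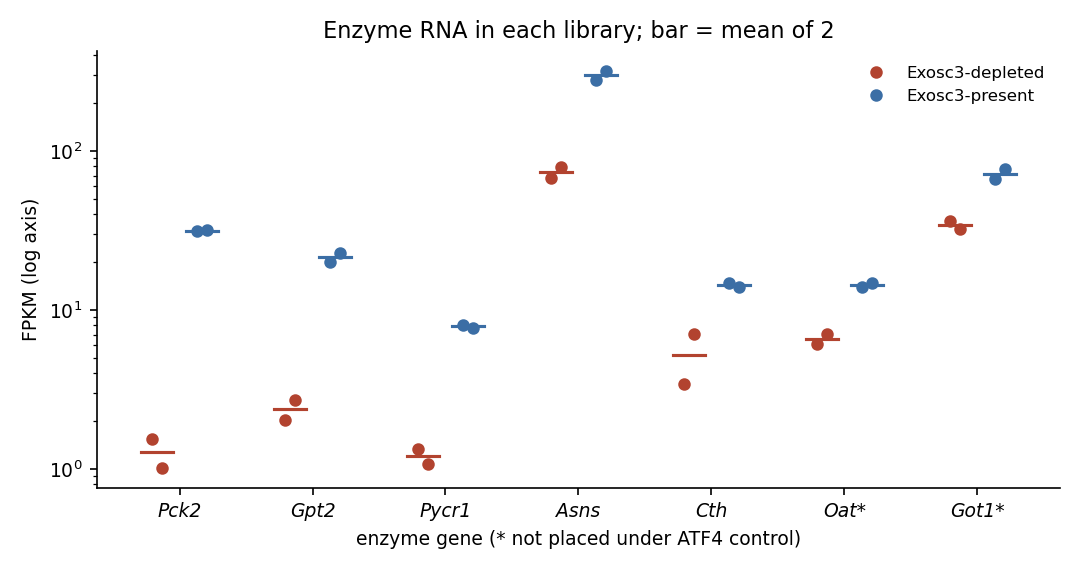
FPKM of the 7 measured enzymes in each library, on a log axis; points are libraries, bars the mean of 2, and genes run from the largest to the smallest difference, with an asterisk on those not placed under ATF4 control. The Exosc3-depleted points lie below the Exosc3-present points for all 7 genes, with the widest gap for Pck2 and the narrowest for Got1.

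Taken by group, the 5 measured ATF4-controlled enzymes had a median log2 difference of -2.30 and ranged from -4.18 (Pck2) to -1.44 (Cth). The 2 measured enzymes outside that group had a median of -1.07. The median over all 9336 tested rows was -0.27, so the group medians lay 2.04 and 0.80 below a typical row. Summed FPKM was 76.0 and 91.0 in Exosc3-depleted libraries and 352 and 396 in Exosc3-present libraries for the ATF4-controlled enzymes. Asns alone supplied 67.6 and 79.1 FPKM of these sums in Exosc3-depleted libraries and 278.0 and 319.7 FPKM in Exosc3-present libraries. For Got1 and Oat together the sum was 42.1 and 39.3 in Exosc3-depleted libraries and 80.4 and 92.4 in Exosc3-present libraries. Got1 supplied 36.0 and 32.2 FPKM, and 66.4 and 77.5 FPKM, of that. Each sum thus mostly follows 1 gene. The difference between the 2 medians was -1.23 and lay between -1.61 and -0.98 under 15 other settings. Among these, changes of the filter, the variance model and the replicate block could not alter it and left it at -1.23. Placing Got1 in the ATF4 group gave -2.16 for that group and left Oat alone at -1.08. With 5 genes against 2, chosen with these values known, the difference between the groups was not tested.

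The order of levels among the 7 differed between the groups. In Exosc3-present libraries it ran from Asns through Got1, Pck2 and Gpt2 to Oat and Cth, whose libraries overlapped, and ended with Pycr1. In Exosc3-depleted libraries Asns and Got1 again came first. Oat and Cth followed and again overlapped, then came Gpt2, and Pck2 and Pycr1 overlapped at the bottom. Pck2 was thus the third highest in Exosc3-present libraries and among the lowest pair in Exosc3-depleted libraries.

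**Figure D3:**
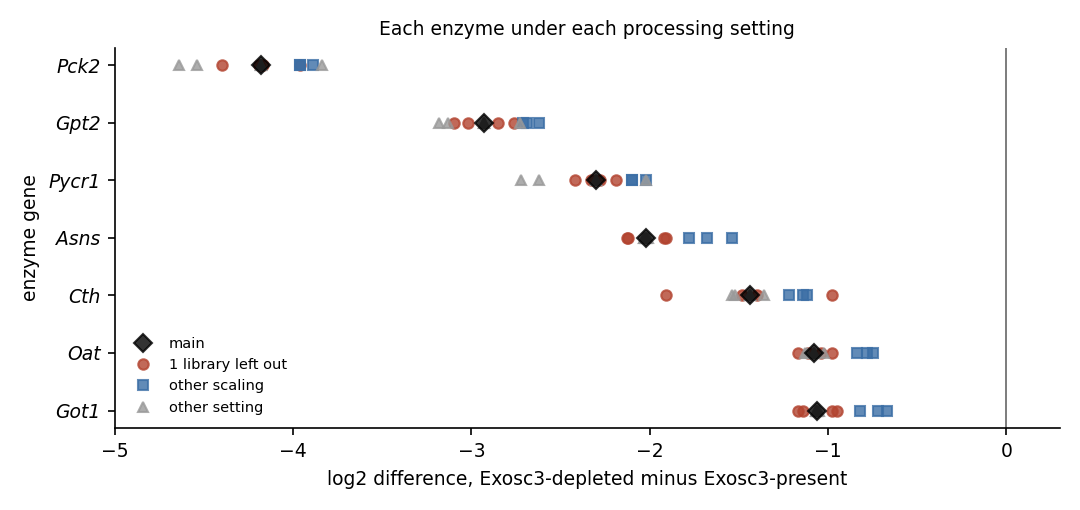
Log2 difference (Exosc3-depleted minus Exosc3-present) of the 7 enzymes under the setting used in the text (diamond), with 1 library left out (circles), under other scalings (squares) and under other settings (triangles). All values lie below 0; the range is widest for Cth (-1.91 to -0.98) and Pck2 stays between -4.64 and -3.84.

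RNA of Atf4 itself fell in Exosc3-depleted cells. It was at 45.4 and 50.2 FPKM in Exosc3-depleted libraries and at 122.8 and 133.4 FPKM in Exosc3-present libraries (log2 -1.41, limma adjusted p = 0.00102). ATF4 is largely controlled at translation, which was not measured. Of 12 tested genes around ATF4 in the stress response, 5 fell and 2 rose, beside 30.1% and 12.6% of all tested rows, and the list's median lay only 0.06 below that of all rows. Named after their values were seen, those that fell besides Atf4 were Trib3 (log2 -1.97), Atf5 (-0.91), the eIF2α kinase gene Eif2ak4 (-0.92) and the phosphatase subunit gene Ppp1r15b (-0.67), and those that rose were Atf3 (1.76) and Sesn2 (0.55). Atf4, Trib3 and Atf3 kept their calls under all 15 other settings, whereas Atf5, Eif2ak4 and Sesn2 each lost theirs under 4 and Ppp1r15b under 7.

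To place the 7 enzymes among their neighbours, 58 other genes of the same pathways were listed, with earlier results of these data known. The shares given for this list and its parts are therefore a description and no test of the pathways. A row was found for 47, and 31 passed the filter. Of the 31, 16 fell (51.6%), 2 rose (6.45%) and 13 did not pass. Of all 9336 tested rows 30.1% fell and 12.6% rose in the same fit (limma, adjusted p under 0.05). The median log2 difference was -0.69 over the 31 genes and -0.27 over all rows. The share that fell moved with the processing, as did that of all rows. Median of ratios scaling gave 10 of 31 beside 19.6% of all rows, quantile normalization 10 of 31 beside 19.1%, and scaling without the 50 highest rows 9 of 31 beside 14.0%. Without Exosc3-present replicate 1 or replicate 2 it was 10 of 31, beside 14.6% and 11.6% of all rows. Of the 16 genes, 9 were called lower under every other setting that tested them.

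The counts per list that follow stand beside the 30.1% of all tested rows that fell and the 12.6% that rose. Among other aminotransferases all 5 tested genes fell, out of 11 with a row. Of these 5, Gpt and Ccbl1 were not called under the 3 other scalings. Psat1, of serine synthesis, was at 15.8 and 21.2 FPKM in Exosc3-depleted libraries and at 188.5 and 191.7 FPKM in Exosc3-present libraries (log2 -3.34, adjusted p = 0.000158). Bcat1, which acts on branched-chain amino acids in the cytosol, was at 4.31 and 4.84 FPKM in Exosc3-depleted libraries and at 23.3 and 23.8 FPKM in Exosc3-present libraries (log2 -2.25, adjusted p = 0.00032). Psat1 and Bcat1 are both known ATF4 targets, and their log2 differences lay further below 0 than that of Asns. Neither carried TGATGNAA in any of its 2 RefSeq promoter windows. Ccbl2, a kynurenine aminotransferase, fell by 1.30 (adjusted p = 0.00208). Ccbl1, its relative, fell by 0.62 (adjusted p = 0.0363) and lost its call under 6 of 15 other settings, the 3 scalings and the omission of either Exosc3-present library among them.

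Of the 3 tested genes in the proline and ornithine list, 2 fell (Pycrl and Prodh) and 1 rose (Aldh4a1). Prodh, which opens proline degradation, was at 6.39 and 4.67 FPKM in Exosc3-depleted libraries and at 10.7 and 10.5 FPKM in Exosc3-present libraries (log2 -0.89, adjusted p = 0.0135). Its call was lost under the 3 other scalings (adjusted p from 0.0560 to 0.0897) and without Exosc3-present replicate 1 (0.132) or replicate 2 (0.129). Aldh4a1, which carries pyrroline-5-carboxylate on to glutamate, was at 33.2 and 26.7 FPKM in Exosc3-depleted libraries and at 14.0 and 15.5 FPKM in Exosc3-present libraries. Aldh4a1 rose by 0.99 (adjusted p = 0.00610) and failed to pass only without Exosc3-present replicate 1 (0.0709).

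Of the 7 tested genes in the aspartate and asparagine list, which includes carriers and dehydrogenases that work with Got1 and Got2, 3 fell and none rose. The aspartate-glutamate carrier gene Slc25a13 was at 8.11 and 11.8 FPKM in Exosc3-depleted libraries and at 22.2 and 24.0 FPKM in Exosc3-present libraries (log2 -1.20, adjusted p = 0.00532). Its relative Slc25a12 fell by 1.10 (adjusted p = 0.00925). The Slc25a12 call was lost with scaling without the 50 highest rows (log2 -0.79, adjusted p = 0.0700) and when Exosc3-present replicate 2 was omitted (log2 -1.05, adjusted p = 0.0736). The cytosolic malate dehydrogenase Mdh1 fell by 0.76 (adjusted p = 0.00966) and lost its call under the 3 other scalings (0.0603 to 0.0938) and without Exosc3-present replicate 1 (0.130) or replicate 2 (0.173). Its mitochondrial counterpart Mdh2 had a log2 difference of -0.53 (adjusted p = 0.0603). The oxoglutarate carrier gene Slc25a11 (log2 -0.35, adjusted p = 0.176) and Nit2 (0.07, adjusted p = 0.773), both named after their values were seen, did not pass either. Ass1, which joins aspartate to citrulline and is likewise named after its values were seen, was at 309.0 and 248.5 FPKM in Exosc3-depleted libraries and at 193.2 and 209.2 FPKM in Exosc3-present libraries (log2 0.46, adjusted p = 0.0701).

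Of 2 tested genes of glutamine and glutamate exchange, 1 fell. Glul, glutamine synthetase, was at 27.0 and 30.1 FPKM in Exosc3-depleted libraries and at 57.7 and 66.9 FPKM in Exosc3-present libraries (log2 -1.11, adjusted p = 0.00295). Glutamate dehydrogenase Glud1 had a log2 difference of 0.28 (adjusted p = 0.223). Around phosphoenolpyruvate and pyruvate, 2 of 4 tested genes fell and 1 rose. The pyruvate kinase gene Pkm2 (Pkm) fell by 1.13 (adjusted p = 0.00264) and the mitochondrial malic enzyme Me2 by 0.76 (adjusted p = 0.0196). Me2 did not pass under the 3 other scalings (0.0800 to 0.170) or without Exosc3-present replicate 1 (0.158) or replicate 2 (0.195). Fbp2, a fructose bisphosphatase, rose by 1.45 (adjusted p = 0.00266), from a low level, with 4.34 and 2.97 FPKM in Exosc3-depleted libraries and 1.07 and 0.937 FPKM in Exosc3-present libraries. G6pc3 had a log2 difference of -0.12 (adjusted p = 0.698).

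In methionine and cysteine metabolism, where Cth acts, 3 of 10 tested genes fell and none rose, a share near the 30.1% of all tested rows that fell. Ahcy, which hydrolyses S-adenosylhomocysteine, fell by 1.29 (adjusted p = 0.00193), Csad, of taurine synthesis, by 1.38 (adjusted p = 0.00193) and Mpst, which handles sulfur from cysteine, by 1.25 (adjusted p = 0.00755). The methionine synthase gene Mtr had a log2 difference of -0.77 (adjusted p = 0.0595). For all 10 genes both Exosc3-depleted libraries lay below both Exosc3-present libraries, beside 50.9% of all tested rows.

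**Figure D4:**
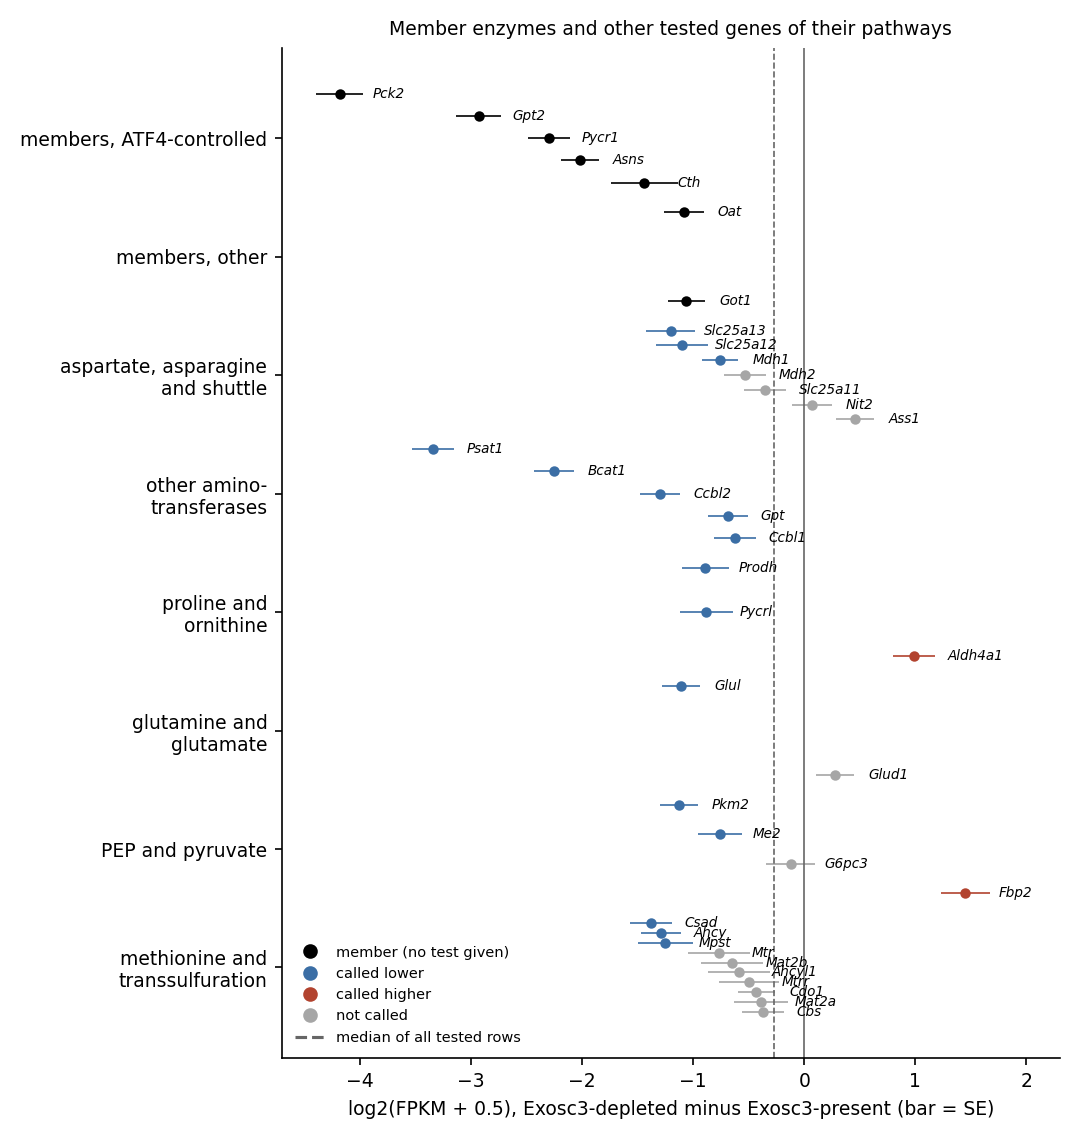
Log2 difference (Exosc3-depleted minus Exosc3-present) with its SE for the 7 enzymes (black) and the 31 other tested genes of their pathways, in rows by list; the dashed line is the median of all tested rows (-0.27). Of the 31 genes, 16 are called lower, 2 (Aldh4a1 and Fbp2) higher and 13 are not called, and Psat1 and Bcat1 lie within the range of the ATF4-controlled enzymes.

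The rows closest in pattern were sought by the Euclidean distance between centred log2(FPKM + 0.5) values over the 4 libraries. Closest to the mean of the ATF4-controlled enzymes were Rnf157 (distance 0.0750), Ntn1 (0.112), Aldh1b1 (0.152), Gldc (0.156) and Gli2 (0.173), with log2 differences from -2.72 (Aldh1b1) to -2.43 (Gli2). Gldc, the glycine decarboxylase gene, was the most abundant of them, at 8.95 and 10.9 FPKM in Exosc3-depleted libraries and at 58.0 and 68.6 FPKM in Exosc3-present libraries. Closest to Pck2 were Exosc3 (0.412), Mov10 (0.421), Nupr1 (0.475), Rpl22l1 (0.668) and Mthfd2 (0.826). Few rows differ as much as Pck2, and a mean over genes is smoother than 1 row, so the 2 sets of distances cannot be compared. Among the 7 enzymes themselves, Got1 and Oat were nearest to each other (0.269), Asns and Pycr1 were nearest to each other (0.467), and Pck2 was the most remote, with Gpt2 as its nearest (1.36). Each distance rests on 4 libraries only.

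Other features of the cells moved with the group, and the counts that follow stand beside the 30.1% of all tested rows that fell and the 12.6% that rose. Of 7 tested embryonic stem cell markers 5 fell (Zfp42, Esrrb, Tdgf1, Dppa5a and Klf2), and the summed level of the 7 with a row was 1315 to 1974 FPKM in Exosc3-depleted libraries and 3118 to 3124 FPKM in Exosc3-present libraries. Pou5f1 was at 413.4 and 286.1 FPKM in Exosc3-depleted libraries and at 471.0 and 433.5 FPKM in Exosc3-present libraries. Of 5 tested trophectoderm markers 4 rose (Krt7, Krt8, Krt18 and Hand1) and Eomes fell, with summed levels of 91.8 to 123.1 FPKM in Exosc3-depleted libraries and 22.8 to 25.1 FPKM in Exosc3-present libraries, while Elf5 was at 0 in both Exosc3-depleted libraries. Of 7 tested primitive endoderm markers 5 rose (Gata4, Gata6, Sox17, Pdgfra and Col4a1), with summed levels of 59.9 to 67.4 FPKM in Exosc3-depleted libraries and 26.4 to 34.3 FPKM in Exosc3-present libraries. Of 4 tested fibroblast markers 2 rose (Pdgfra and Twist1) and Thy1 fell, Postn, Lum and Dcn were at 0 in all 4 libraries, and summed levels were 2.795 to 3.377 FPKM in Exosc3-depleted libraries and 3.868 to 4.004 FPKM in Exosc3-present libraries. The stem cell, trophectoderm and primitive endoderm sums rest mostly on a few abundant genes. Dppa5a had a mean of 1087 FPKM in Exosc3-depleted and 2218 FPKM in Exosc3-present libraries. In the same order, means were 54.2 and 10.5 FPKM for Krt8, 48.5 and 11.9 FPKM for Krt18, and 39.0 and 9.76 FPKM for Col4a1. Lama1, the next largest in the primitive endoderm sum, was at 18.3 and 18.0 FPKM. The filter also shaped the marker counts. Of the called markers, Gata6, Sox17, Pdgfra, Hand1 and Twist1 had Exosc3-present means below 0.5 FPKM and passed only through the Exosc3-depleted group. Thy1 and Eomes passed only through the Exosc3-present group. Such rows enter the tested set because they differ, so nothing is read from the counts that include them. The part of these marker shifts in the enzyme differences was not tested.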

How the data were processed

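The authors deposited 1 table of FPKM values with a UCSC known gene identifier and a symbol per row and 1 column per library, per the file headers. Bowtie2, STAR, Picard, bedtools and edgeR and the build mm9 come from the submitters' processing notes; the role of each is not given in the sources used here. Only RNA that reached a RIN of 8.5 was used, per the labels' protocols.

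Rows whose mean FPKM reached 0.5 (9336) were fitted on log2(FPKM + 0.5) with limma 3.58.1 under R 4.3.3, using an intensity trend and no covariate, and two-sided p-values were Benjamini-Hochberg adjusted over all tested rows at 0.05. The pseudocount understates the change of low genes; fold values are ratios of mean FPKM. A library total of 38095698 and 41968325 fragments (Exosc3-depleted replicates 1 and 2) and 60851774 and 55233386 (Exosc3-present) was recovered from the spacing of FPKM values. All 15471 rows above 0 gave whole fragments within 0.004 of a fragment, with a margin that grew with the count for the highest rows. The shortest model length that fitted was taken. For rows with few fragments in few libraries some length almost always fits, so this outcome is no check there. Low recovered counts are therefore lower bounds. Listed gene models held 16151244 and 18483528 fragments (Exosc3-depleted) and 30253913 and 28610794 (Exosc3-present), a smaller part of the total in Exosc3-depleted libraries. FPKM was scaled to the total, and the part of this in the median of -0.27 over all tested rows was not tested. The recovered fragments did not enter the main fit. A symbol was represented by its highest row. Named genes were all members, up to 4 tested genes with the smallest p per pathway list, other forms of a member's reaction, Atf4, Exosc3 and the 5 rows nearest in pattern. Some genes of these pathways are not reported here. Members and lists were chosen with earlier results of these data known. Alternatives covered the pseudocount, filter, scaling, variance model, recovered fragments, replicate block, each library left out, and the placing of Got1.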

Additional observations from a re-analysis of the deposited data

How the results depend on the processing

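The 7 enzymes, chosen for this difference, had a negative log2 difference under each alternative run. The median of the ATF4-controlled enzymes (-2.30) was -2.62 with a pseudocount of 0.1, -2.02 with 1, -2.10 with median of ratios scaling and with quantile normalization, -2.02 with scaling without the 50 highest rows and -2.72 with limma-voom on recovered fragments. That of Got1 and Oat (-1.07) was -0.83, -0.72 and -0.74 under those 3 scalings. Each symbol had 1 row, so summing rows changed nothing. Those scalings gave 1830, 1782 and 1311 rows lower in place of 2806, put the share of called rows that were higher at 47.4%, 47.0% and 54.7% in place of 29.6%, and gave 10, 10 and 9 pathway genes lower in place of 16. A filter at a mean FPKM of 2 gave 667 rows higher in place of 1177. Of pathway genes 4 rose, in place of 2, with no filter, with quantile normalization and with scaling without the 50 highest rows. With 1 library left out, 1082 to 4715 rows were lower and 668 to 2183 higher, and 10 to 22 pathway genes were lower and 1 to 3 higher. The cause of these shifts was not tested. In such fits the lone library is assumed to vary like the other group; the SD of the log2 difference within a pair was 0.432 for Exosc3-depleted and 0.188 for Exosc3-present libraries.

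The labels do not pair the replicates, and deviations of same-numbered libraries correlated at 0.244 over rows. With the replicate number as a block, 3468 rows were lower and 1431 higher, and 21 pathway genes were lower and 3 higher. In this balanced layout a block cannot change a log2 difference, so the medians of -2.30 and -1.07 were fixed in advance. The block also left less data for the spread of each row, so these counts lean more on variance borrowed across rows.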
